A study of Anguilla japonica with 6 samples.

Results

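Of 35011 full-length transcripts of the gonads of the Japanese eel (Anguilla japonica), 1319 carried no match in any of 5 annotation columns, namely the protein collections nr, SwissProt and KEGG, the nucleotide collection nt and the protein domain collection pfam. These 1319 are called unannotated here, and the other 33692 annotated. Each row name states the tissue whose long reads gave the transcript, so the unannotated set split into 825 testis-built and 494 ovary-built transcripts. The libraries that measured them came from 3 testes of males and 3 ovaries of females, 1 library per fish, reared in aquaculture to the silver stage, at which eels leave for the spawning migration. All 6 gonads were differentiated and immature, and no fish had been given hormones. The labels give no age, strain or genotype.

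Long-read sequencing of full-length cDNA (PacBio Iso-seq) reads a transcript from end to end, so a row exists whether or not its protein or gene is known from another species. Transcripts with no match to known proteins or domains include long noncoding RNAs, which are spliced and polyadenylated without coding for a protein, fragments and untranslated ends of coding messages, and genes that have diverged too far for a match. In mammals the testis is known for transcribing many such RNAs, mostly in meiotic and postmeiotic germ cells, and the growing oocyte for storing RNA for the embryo. Which of these kinds an eel transcript belongs to was not measured.

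The 6 libraries held 11913969 to 13616804 estimated counts in testis and 15096728 to 18508307 in ovary. Marker genes of the 2 gonads stood higher in the tissue of their label. The 6 oocyte markers, which include the egg envelope genes zp2 and zp3, summed to 598, 13457 and 4292 FPKM (reads scaled for transcript length and library size) in testes 1, 2 and 3, against 77013 to 104287 in the ovaries, and the 6 testis markers, such as sycp3 and dmrt1, to 434 to 834 FPKM in the testes against 9.76 to 18.9 in the ovaries. Testis 1 stood apart in the muscle markers and in the red blood cell marker cahz. Of the muscle markers 4 of 5 were in the table, summing to 822, 44.2 and 153 FPKM in testes 1, 2 and 3 and 6.14 to 9.04 in the ovaries, and of the red blood cell markers 2 of 5, summing to 3727, 121 and 144 and to 1.96 to 5.56. The red blood cell sum was mostly cahz, at 3723, 81.0 and 132 FPKM in testes 1, 2 and 3. The other marker, alas2, was lowest in testis 1, at 3.17, 39.6 and 12.2 FPKM. The part of these markers in the results below was not tested. The leukocyte markers, 3 of 5 in the table, summed to 70.9, 352 and 277 FPKM in the testes and 29.1 to 64.3 in the ovaries. The leukocyte sum was mostly cd74, at 59.82, 342.59 and 266.46 FPKM in testes 1, 2 and 3. Its other markers did not share the low value in testis 1. There coro1a stood at 8.99 FPKM, against 9.57 and 10.04 in testes 2 and 3, and mpeg1 at 2.07, against 0.28 and 0.17. In a bulk sample, fewer cells of a type and less RNA per cell cannot be told apart.

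The testis long reads gave the larger unannotated share. Of 12462 testis-built transcripts 6.62% were unannotated, against 2.19% of 22549 ovary-built ones. When only the protein columns were asked, whatever nt held, the shares were 9.20% and 2.81%. Of the 1319, 1 ovary-built transcript had a match in KOG, a further column of protein families, and none had a Gene Ontology term. With 1 build per tissue, the share of a tissue cannot be told apart from the depth and the filters of its long-read library.

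Unannotated transcripts were shorter. Testis-built ones had a median of 1742 bases (quartiles 1332 and 2260), against 2502 (1843 and 3387) for annotated ones of the same build. Ovary-built ones had a median of 2088 bases (1610 and 2638), against 2787 (2174 and 3555). The shortest were 86 and 139 bases long in the testis and ovary build, and the longest 5091 and 5178. In both builds the unannotated share was highest in the shortest class. It was 15.8% of 368 testis-built transcripts under 1000 bases and 12.2% of the 3803 with 1000 to under 2000 bases, against 5.54% of those with 2000 to under 3000, 1.93% of those with 3000 to under 5000 and 0.388% of those with 5000 bases or more. For the ovary build these shares were 10.3%, 4.72%, 2.30%, 0.773% and 0.213%. The testis-built share was the larger one in each of the 5 classes.

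**Figure D1:**
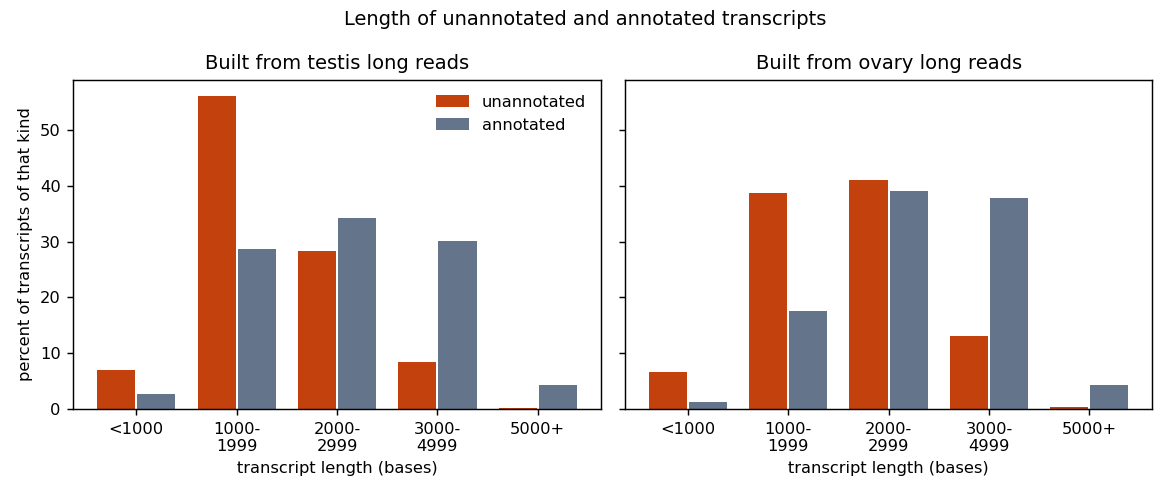
Share of unannotated and annotated transcripts (vertical axis, percent of the transcripts of that kind) in 5 length classes (horizontal axis, bases), for the testis build on the left and the ovary build on the right. Of the unannotated testis-built transcripts 56.1% had 1000 to under 2000 bases, against 28.7% of the annotated ones, and for the ovary build 38.7% against 17.5%.

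Fewer long reads stood behind them. By the Iso-seq naming convention each row name also gives the number of full-length reads in the transcript's cluster, and no cluster had under 2. Of the testis-built unannotated transcripts 78.9% rested on 2 reads, against 48.2% of the annotated ones, and 5.33% on 5 or more, against 26.5%. In the ovary build 67.6% rested on 2 reads, against 46.6%, and 11.3% on 5 or more, against 27.2%. The best supported unannotated transcripts had 33 reads in the testis build and 25 in the ovary build. Only 13 of the 1319 were marked as low quality (LQ in the row name), 1 of them testis-built.

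Unannotated transcripts more often had a whole count, that is one without decimals. The share of reads that were divided was not measured. A deposited count with decimals is one in which reads were divided between transcripts, while a whole count holds none so divided or a sum that came out whole. Among testis-built transcripts with a count of at least 1, counts were whole for 50.5%, 50.5% and 50.3% of the unannotated ones in testes 1, 2 and 3 and for 52.9%, 53.1% and 54.1% in ovaries 1, 2 and 3. Those of the annotated ones were whole for 20.2% to 22.4% in the testes and 23.4% to 23.8% in the ovaries. For the ovary build the unannotated ones had 48.4% to 50.3% whole counts in the testes and 48.0% to 49.0% in the ovaries, and the annotated ones 15.6% to 16.6% and 13.9% to 14.4%. The gap between the 2 kinds, 28.0 to 34.7 points across libraries and builds, overlapped between the tissues: testis minus ovary it differed by -0.807 points (exact two-sided permutation p = 0.4) for the testis build and -1.45 (exact permutation p = 0.2) for the ovary build. With 3 against 3, the smallest p this test allows is 0.1. Without testis 1 the gaps no longer overlapped, at -1.46 and -2.00 points (exact permutation p = 0.1 each). Among counts of at least 10 the ovary-built difference was -8.84 points (exact permutation p = 0.1) and the testis-built one -0.298 (exact permutation p = 0.9). All 6 counts were whole, and not all 0, for 46.3% of the testis-built and 41.7% of the ovary-built unannotated transcripts, against 18.2% and 11.4% of the annotated ones.

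The share of counts on unannotated transcripts was higher in every testis than in any ovary. They held 1.91%, 2.67% and 2.97% of the counts in testes 1, 2 and 3, against 1.15%, 1.33% and 1.10% in ovaries 1, 2 and 3. The means were 2.52% ± 0.546 in testis and 1.19% ± 0.118 in ovary (SD, n = 3 each), with no overlap (exact permutation p = 0.1). Testis-built transcripts gave this excess, with 1.66%, 2.26% and 2.52% in the testes and 0.327%, 0.328% and 0.180% in the ovaries (exact permutation p = 0.1). Ovary-built ones went the other way, with 0.244%, 0.407% and 0.447% in the testes and 0.820%, 0.998% and 0.923% in the ovaries (exact permutation p = 0.1). Each row arose from long reads of its build's tissue, so the split by build favours these directions in advance. The p-values within a build do not test them independently. Annotated rows of the same build arose in the same way and are set beside the unannotated ones below. The 95% Wilson interval of each share reaches at most 0.00963 points to either side and covers counting error only. Testis 1 held the lowest testis value of each of these shares, and without it the testis mean was 2.82%. As a share of summed FPKM, which weighs short transcripts more, the tissues overlapped, at 1.81%, 2.10% and 2.73% in testes 1, 2 and 3 and 1.79%, 2.06% and 2.07% in ovaries 1, 2 and 3 (testis minus ovary 0.239 points, exact permutation p = 0.4). On that scale the 2 builds kept their directions, with differences of 1.54 points for the testis build and -1.30 for the ovary build (exact permutation p = 0.1 each). All testis-built rows, annotated or not, took 63.4%, 51.3% and 50.2% of the counts in testes 1, 2 and 3. In ovaries 1, 2 and 3 they took 24.7%, 22.4% and 18.0%. The testis build also had the larger unannotated share of rows. The part of this in the higher unannotated share of counts in testis was not tested.

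**Figure D2:**
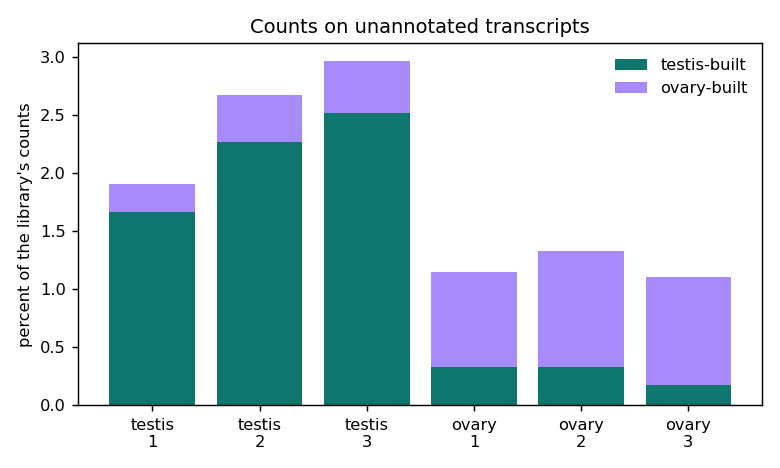
Share of each library's counts (vertical axis, percent) on unannotated transcripts, 1 bar per library, split by the tissue of the build. The 3 testes reached 1.91% to 2.97%, mostly on testis-built transcripts, and the 3 ovaries 1.10% to 1.33%, mostly on ovary-built ones.

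Ranked by counts in each library, the 10 most abundant testis-built unannotated transcripts held 12.9%, 22.1% and 26.4% of the counts of that set in testes 1, 2 and 3. The 10 most abundant ovary-built ones held 38.8%, 34.4% and 47.3% of theirs in ovaries 1, 2 and 3.

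Taking all lengths together, nearly all unannotated transcripts were seen in their own tissue, and fewer than the annotated ones in the other. Each row rested on at least 2 full-length reads of its own tissue, so detection there was favoured in advance. Of the 825 testis-built transcripts 93.1%, 92.2% and 91.0% had a count of at least 1 in testes 1, 2 and 3, and 82.4%, 79.9% and 76.8% in ovaries 1, 2 and 3. Annotated testis-built transcripts stood at 97.9%, 91.9% and 90.0% in the testes and 85.7%, 84.0% and 84.6% in the ovaries. In the ovaries the unannotated ones were thus lower by 3.30 to 7.73 points, while in testes 2 and 3 they were higher by 0.372 and 1.05 points and in testis 1 lower by 4.80. The gap between the kinds overlapped between the tissues (testis minus ovary 3.92 points, exact permutation p = 0.3). Without testis 1 the difference was 5.75 points, with no overlap (exact permutation p = 0.1, the smallest it allows). With all libraries it was 9.70 points at a level of at least 0.5 CPM (counts scaled to a common library total) and 8.34 at a count of at least 10 (exact permutation p = 0.1 each). From 3000 to under 5000 bases the testis-built unannotated transcripts (69) were detected more often than annotated ones in the ovaries too. They stood at 94.2%, 91.3% and 85.5% in ovaries 1, 2 and 3, against 85.6%, 84.6% and 84.3%. In each class under 3000 bases they were lower in every ovary.

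In the testes, ovary-built unannotated transcripts were less often detected than annotated ones. Of the 494 transcripts 63.6%, 75.3% and 69.6% were detected in testes 1, 2 and 3, against 94.1%, 92.9% and 92.3% in ovaries 1, 2 and 3. Annotated ovary-built transcripts stood at 80.9%, 85.6% and 82.5% in the testes and 91.4%, 91.0% and 92.7% in the ovaries. The gap between the kinds was -17.4, -10.3 and -12.8 points in the testes and 2.77, 1.90 and -0.438 in the ovaries, with no overlap (testis minus ovary -14.9 points, exact permutation p = 0.1). From 3000 to under 5000 bases (65 unannotated transcripts) testis 3 was an exception, at 84.6% of the unannotated and 83.0% of the annotated ones. Detection of the ovary-built set was lowest in testis 1 and highest in testis 2. The sum of the oocyte markers, mostly zp3, stood in the same order, as did the leukocyte sum, mostly cd74, and alas2. Taken singly, the oocyte markers zp2, zp3, bmp15, gdf9 and zar1 each stood in that order too. Of these, bmp15 ranged only from 3.6 to 4.77 FPKM in the testes and gdf9 from 0.58 to 2.06. The oocyte marker figla did not stand in that order, at 8.76, 40.5 and 46.4 FPKM in testes 1, 2 and 3. Nor did the leukocyte markers coro1a, highest in testis 3, and mpeg1, highest in testis 1. The part of these markers in the detection was not tested. The ovary libraries were deeper than the testis libraries, and at a common level of 0.5 CPM the difference in detection was -28.3 points (exact permutation p = 0.1) in place of -23.6.

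Of the testis-built unannotated transcripts, 84 (10.2%) had no count in any ovary, against 5.89% of the annotated ones, and 21 (2.55%) had none in any testis, against 0.662%. Of the ovary-built ones, 72 (14.6%) had no count in any testis, against 5.89%, and 10 (2.02%) had none in any ovary, against 0.825%. In all 6 libraries together 23 of the 1319 had no count, 14 testis-built and 9 ovary-built, and these are among the 84 and the 72. Of the annotated transcripts of the 2 builds, 53 and 119 had no count in any library. Among the 23 was the shortest transcript of each build, which at 86 and 139 bases is shorter than the length the FPKM take off for the fragment. Leaving testis 1 aside, 16.8% of the unannotated and 9.13% of the annotated ovary-built transcripts had no count in testes 2 and 3.

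**Figure D3:**
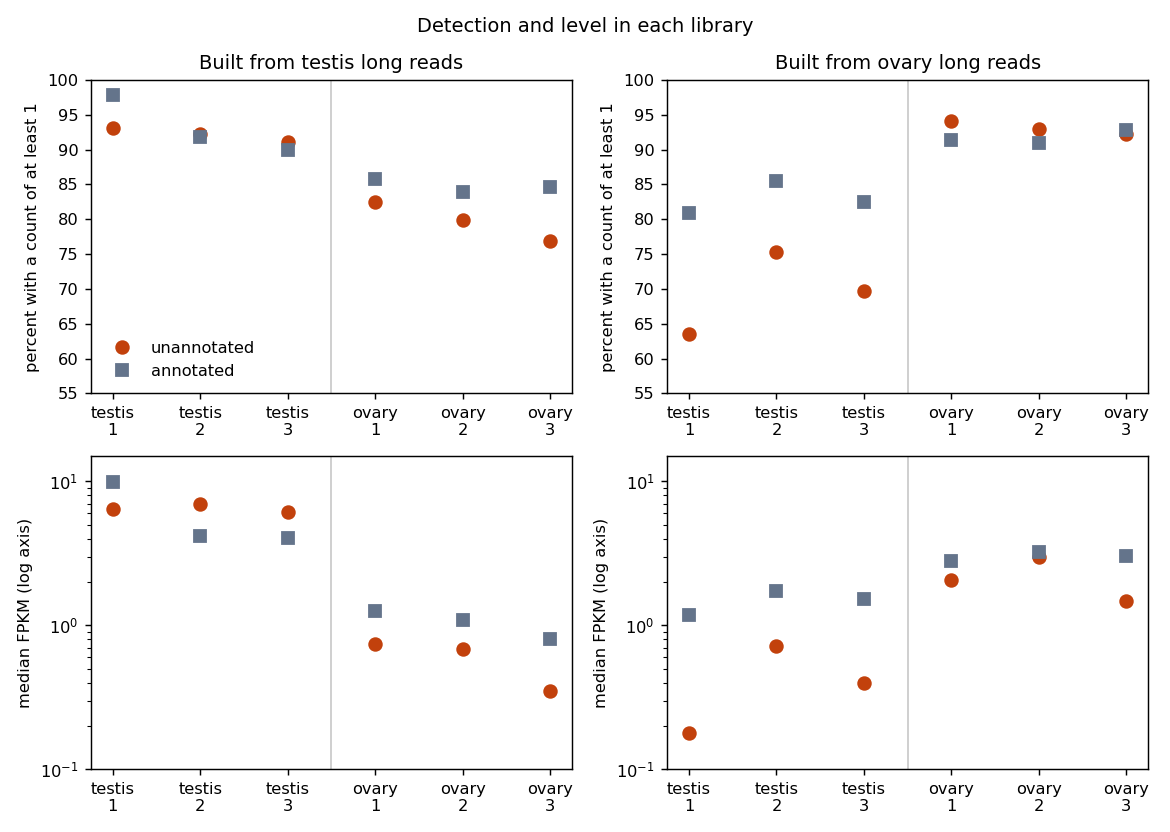
Percent of transcripts with a count of at least 1 (upper row) and median FPKM on a log axis (lower row) in each library, for the testis build on the left and the ovary build on the right, with unannotated transcripts as circles and annotated ones as squares. Circles lie below squares in the tissue that did not give the build, in both rows, and furthest in the testes for the ovary build, at medians of 0.180 to 0.715 FPKM against 1.18 to 1.73.

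Median levels of unannotated transcripts, like their detection, were higher in the tissue of the build. The median FPKM of testis-built unannotated transcripts was 6.44, 7.0 and 6.16 in testes 1, 2 and 3, against 0.740, 0.680 and 0.350 in ovaries 1, 2 and 3 (exact permutation p = 0.1). A higher level in the tissue of the build was again favoured by the split itself. That of annotated testis-built transcripts was 9.91, 4.2 and 4.04 in the testes and 1.26, 1.09 and 0.810 in the ovaries. Unannotated transcripts thus stood below annotated ones in testis 1, by 0.61 on the log2 scale (median FPKM + 0.1), and above them in testes 2 and 3, by 0.72 and 0.60. The annotated median in testis 1 was over 2 times that in the other testes, while the unannotated medians lay between 6.16 and 7.0. In the ovaries the unannotated set was lower by 0.70, 0.61 and 1.02. The gaps overlapped between the tissues (testis minus ovary 1.01, exact permutation p = 0.2), and without testis 1 the difference was 1.43.

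Levels also differed by length. Within length classes the testis-built gap, testis minus ovary, was 2.71 under 1000 bases, 1.51 from 1000 to under 2000 and 0.73 from 2000 to under 3000 bases (exact permutation p = 0.1 each), and 0.84 from 3000 to under 5000 (exact permutation p = 0.3). Among testis-built transcripts of 1000 to under 2000 bases the median of the mean testis FPKM was 9.33 for unannotated and 12.9 for annotated transcripts, and among those of 2000 to under 3000 bases 6.31 and 6.86. In the ovaries these medians were 0.757 and 3.25, and 0.600 and 1.31. For the ovary build the median FPKM of unannotated transcripts was 0.180, 0.715 and 0.395 in the testes, against 2.07, 3.0 and 1.47 in the ovaries (exact permutation p = 0.1). Relative to annotated transcripts they stood lower by 2.19, 1.17 and 1.71 on the log2 scale in testes 1, 2 and 3 and by 0.42, 0.11 and 1.0 in ovaries 1, 2 and 3. These gaps did not overlap between the tissues (testis minus ovary -1.18, exact permutation p = 0.1). In ovaries 1 and 2 the ovary-built unannotated transcripts were detected more often than annotated ones, by 2.77 and 1.90 points. Their lower median level there thus did not go with lower detection.

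Tissue bias was described over all 1319 transcripts as the log2 ratio of mean CPM, testis over ovary, with 0.1 CPM added to each. The median was 3.01 for testis-built unannotated transcripts (quartiles 1.67 and 4.60), against 2.26 (0.77 and 3.91) for annotated ones. It was -2.05 (quartiles -4.10 and 0.00) for the ovary-built unannotated set, against -1.0 (-2.71 and 0.31). The median over all transcripts of the table was 0.02. The mean was higher in testis for 93.0% of the testis-built unannotated transcripts, against 85.3% of the annotated ones, and higher in ovary for 74.7% of the ovary-built ones, against 68.6%.

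**Figure D4:**
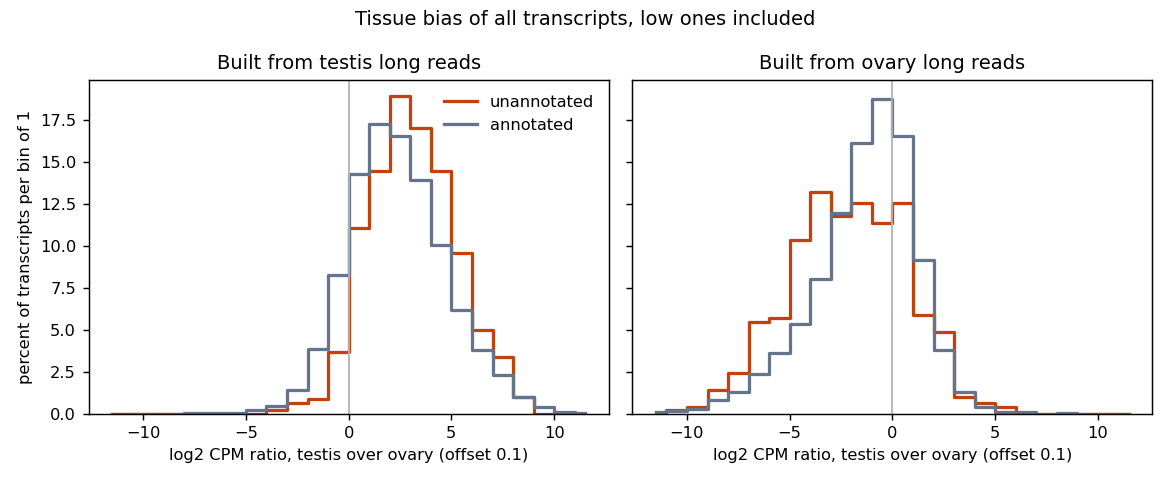
Distribution of the log2 CPM ratio, testis over ovary (horizontal axis), as the percent of transcripts per bin of 1 (vertical axis), for unannotated and annotated transcripts of the testis build (left) and the ovary build (right). The unannotated curve lies further to the side of the tissue that gave the build, with medians of 3.01 against 2.26 on the left and -2.05 against -1.0 on the right.

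The size of this gap moved with the comparison. For the testis build the difference of medians, 0.75 over all lengths, was 1.49 under 1000 bases, 1.33 from 1000 to under 2000, 0.87 from 2000 to under 3000 and 0.17 from 3000 to under 5000 bases, where 69 unannotated transcripts lay. For the ovary build it was -1.05, and -1.26, -1.29, -0.75 and -0.81 in those classes. Without testis 1 the testis-built difference was 1.42, with medians of 2.76 for unannotated and 1.34 for annotated transcripts, and the ovary-built one -0.87. Among transcripts resting on 2 full-length reads the differences were 0.51 and -0.58. Among transcripts whose 6 counts were all whole they were 0.74 and -2.17.

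Complete separation of the tissues was frequent. Of the 825 testis-built unannotated transcripts, 524 (63.5%) had a higher CPM in every testis than in any ovary, against 45.5% of the annotated ones, and 8 (0.970%) the reverse. Of the 494 ovary-built ones, 199 (40.3%) were higher in every ovary than in any testis, against 23.0% of the annotated ones, and 41 (8.30%) the reverse. Over all 35011 transcripts, 21.7% had every testis above and 16.4% every ovary above. Without testis 1, which leaves 2 testes to separate, the shares were 71.4% and 49.2% in the testis build and 42.9% and 29.3% in the ovary build, with 26.5% and 22.4% over the whole table. Among transcripts whose 6 counts were all whole, the 2 kinds lay closer in the testis build, at 67.2% of the unannotated and 62.6% of the annotated ones. In the ovary build these shares were 52.6% and 29.6%. The part of shared reads in the separation was not tested.

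In the model fitted to the whole table (edgeR's quasi-likelihood test, Benjamini-Hochberg adjusted p under 0.05), 192 of the 825 testis-built unannotated transcripts passed as higher in testis and 2 as higher in ovary. Of the 494 ovary-built ones, 50 passed as higher in ovary and 5 as higher in testis. The model's filter on low counts left 648 and 369 of them, and 302 of the 1319 were not tested. Over all 30738 transcripts tested, 10.7% were called, 6.26% with the testes higher and 4.4% with the ovaries higher. Of the tested rows of the testis build 15.8% were called higher in testis and 0.952% higher in ovary, and of those of the ovary build 0.933% higher in testis and 6.33% higher in ovary. The 192 transcripts made up 11.03% of the testis-built rows called higher in testis, and the 50 made up 4.01% of the ovary-built rows called higher in ovary. Of the unannotated transcripts tested, 29.6% of the testis-built ones were higher in testis, against 14.9% of the annotated ones, and 13.6% of the ovary-built ones higher in ovary, against 6.19%. Of all members, tested or not, the shares were 23.3% and 10.1%, against 13.3% and 5.43% of the annotated transcripts. Annotated rows without a SwissProt or pfam match were called at shares near or above those of the unannotated ones, as given further below.

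Other fits gave other numbers of calls over the whole table. DESeq2 called 423 testis-built unannotated transcripts higher in testis and 194 ovary-built ones higher in ovary, 55.7% and 42.5% of those tested, against 38.1% and 24.9% of all rows of the 2 builds. With limma-voom the counts were 83 and 27, or 12.8% and 7.32%, against 8.13% and 4.59% of all rows. With limma on log2(FPKM + 1) they were 269 and 53, or 34.7% and 11.2%, against 19.2% and 7.2% of all rows. Without testis 1, edgeR called 110 and 10, or 16.2% and 2.33%, against 7.26% and 2.08% of all rows, so the ovary-built share then lay near that of its build. When testis 2, testis 3, ovary 1, ovary 2 or ovary 3 was left out, edgeR called no transcript of the table, annotated or not. At an unadjusted edgeR p under 0.05, 402 of 648 testis-built unannotated transcripts were higher in testis and 139 of 369 ovary-built ones higher in ovary with all libraries. Over all tested rows of the builds these were 4231 of 11027 and 4160 of 19711. With 1 library left out there were 334 to 417 of 671 to 703 and 115 to 160 of 384 to 429. Over all rows of the builds there were then 3569 to 3819 of 11192 to 11590 and 3387 to 4049 of 20363 to 20992.

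The largest rises in testis were in transcripts with no ovary count at all. Testis-built transcript 25045, of 1331 bases, had 155.91, 385.55 and 854.27 counts in testes 1, 2 and 3 and none in any ovary. These were 10.6, 26.8 and 66.9 FPKM against 0. Its counts were fractional, so part of its reads was shared with other rows. Set against 3 counts summed over the ovaries, the floor used here, its level in testis was at least 609-fold higher (edgeR adjusted p = 0.0344). All 3 testes lay above all ovaries, which, like the call, was a condition for being picked. The bound was 341 without testis 3, 402 without ovary 1 and 387 without ovary 3. None of the 4 transcripts given by number here was called by edgeR when testis 2, testis 3 or any ovary was left out. Testis-built transcript 22740, of 1551 bases and 4 full-length reads, had 903, 57 and 95 counts in testes 1, 2 and 3 and none in any ovary. By the same floor it was at least 460-fold higher (edgeR adjusted p = 0.0458), a bound that rested on testis 1 and was 102 without it. Without ovary 1 and ovary 3 that bound was 304 and 293, and the call was lost with limma-voom (adjusted p = 0.0602), limma on log2(FPKM + 1) (adjusted p = 0.0520) and edgeR without a filter (adjusted p = 0.0598).

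Of the 5 next largest rises, all testis-built and 1156 to 2388 bases long, 2 also had no ovary count and the other three had 1 or 2 counts over the ovaries, against 553 to 1600 over the testes. In the 2 without an ovary count testis 1 was the lowest testis, at 45 and 44 counts. In 2 of the others testis 1 carried most of the counts, 1540 of 1600 and 815 of 954.

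The largest falls were in transcripts with no testis count. Ovary-built transcript 41129, of 2052 bases, had no count in any testis and 457, 355 and 123 counts in ovaries 1, 2 and 3, or 14.7, 13.0 and 3.74 FPKM. It was at least 238-fold lower in testis (edgeR adjusted p = 0.0319), and 155 and 156 were the bounds without testis 1 and testis 2. Ovary-built transcript 54008, of 918 bases, had no count in any testis and 200.19, 233.18 and 18.93 counts in ovaries 1, 2 and 3. Its counts were fractional, so part of its reads was shared with other rows. It was at least 115-fold lower in testis (edgeR adjusted p = 0.0490), with bounds of 74.8 and 75.7 without testis 1 and testis 2 and 174 without ovary 3. The call was lost with limma-voom (adjusted p = 0.0634) and with edgeR without a filter (adjusted p = 0.0654). The 4 next largest falls had 2 to 4 counts over the testes and 1360 to 3674 over the ovaries, and each had no count in testis 1.

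By mean FPKM, the most abundant unannotated transcripts were short. First in testis was a testis-built transcript of 448 bases with 483, 3311 and 11864 FPKM in testes 1, 2 and 3 and 50.4, 42.0 and 18.45 in ovaries 1, 2 and 3. Its log2 fold change, testis over ovary, was 6.92 (edgeR adjusted p = 0.0400), and testis 1 was the lowest testis by a wide margin. Next in testis were ovary-built transcripts of 386 and 441 bases, with 115, 1049 and 1580 FPKM and 471, 1117 and 904 FPKM in the testes, against 243, 177 and 84.7 and 262, 170 and 401 in the ovaries. Neither passed the test (edgeR adjusted p = 0.186 and 0.173). Next after them, at 1107 bases, was the testis-built transcript with 33 full-length reads, at 341, 633 and 776 FPKM in the testes and 10.6, 15.7 and 8.33 in the ovaries (log2 fold change 5.43, edgeR adjusted p = 0.0271). Another testis-built one, 817 bases long, stood at 215, 698 and 642 FPKM in the testes and 35.4, 32.1 and 40.9 in the ovaries (log2 fold change 3.61, edgeR adjusted p = 0.0365). The FPKM divide by the length less 246 to 276 bases, so those of transcripts of 386 to 448 bases rest on a small divisor. In counts the first had 1287, 8752 and 26789 in the testes and 172, 128 and 59 in the ovaries. Summed over the testes, those of 386, 441, 1107 and 817 bases had 4525, 6022, 19052 and 11197 counts. The longest testis-built one, of 5091 bases, had 12100, so a ranking by counts would differ.

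First in ovary was an ovary-built transcript of 429 bases and 12 full-length reads, which was also among the 7 largest falls. It stood at 0, 14.2 and 11.3 FPKM in testes 1, 2 and 3 and 2763, 3663 and 5130 FPKM in ovaries 1, 2 and 3 (log2 fold change -8.98, edgeR adjusted p = 0.0390). The other 4 of the 5 most abundant in ovary, of 684 to 785 bases, varied between fish, and none of them passed the test (edgeR adjusted p = 0.0920 to 0.312). The one of 715 bases stood at 0, 18.0 and 0 FPKM in testes 1, 2 and 3 and at 0, 507 and 2055 in ovaries 1, 2 and 3. The one of 684 bases stood at 0, 30.7 and 1.86 in the testes and 957, 1010 and 382 in the ovaries. Those of 685 and 785 bases lay between 0 and 59.4 in the testes and stood at 1007, 706 and 0 and at 455, 32.4 and 1086 in the ovaries. All 4 had fractional counts, so part of their reads was shared with other rows.

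The longest testis-built unannotated transcript, of 5091 bases, stood at 98.0, 46.3 and 46.2 FPKM in testes 1, 2 and 3 and 0.220, 0.190 and 0.0200 in ovaries 1, 2 and 3 (log2 fold change 8.49, edgeR adjusted p = 0.0271). The longest ovary-built one, of 5178 bases, stood at 0, 0.150 and 0 in the testes and 3.34, 1.96 and 0.0200 in the ovaries and did not pass the test (edgeR adjusted p = 0.187).

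Weakly annotated transcripts resembled the unannotated ones in several measures. In the testis build, 321 transcripts had a nucleotide match alone, 361 had a match in nr or KEGG without SwissProt and pfam, and 10955 had a SwissProt or pfam match. Median lengths were 1742 bases for the unannotated and 1787, 2183 and 2533 for these 3 classes. Every testis lay above every ovary for 63.5% of the unannotated transcripts and for 67.3%, 57.3% and 44.5% of the 3 classes. The median log2 ratio was 3.01 for the unannotated and 3.13, 3.16 and 2.20 for the classes, so the testis bias was not particular to rows without any match. In the ovary build, with 139, 447 and 21469 transcripts in the 3 classes, every ovary lay above every testis for 40.3% of the unannotated and for 32.4%, 39.4% and 22.6% of the classes, and the median log2 ratios were -2.05, -0.79, -2.25 and -0.98. A count of 0 in all 3 testes was found for 14.6% of the unannotated and 5.04%, 9.84% and 5.81% of the classes. Of the tested testis-built transcripts, edgeR called 29.6% of the unannotated higher in testis, and 35.5%, 26.0% and 14.0% of the classes. In the ovary build it called 13.6% of the unannotated higher in ovary, and 17.7%, 16.1% and 5.92% of the classes. In neither build was the share called particular to rows without any match.

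**Figure D5:**
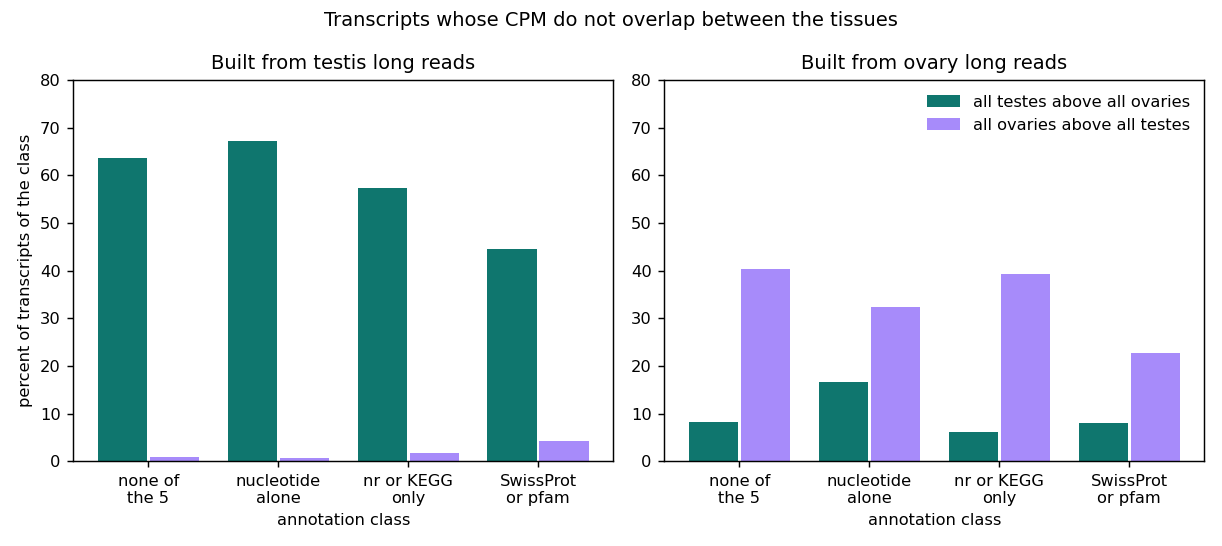
Percent of transcripts (vertical axis) whose CPM in all 3 testes lay above those in all 3 ovaries, or the reverse, in 4 annotation classes (horizontal axis) of the testis build (left) and the ovary build (right). In the testis build the first 3 classes reach 57.3% to 67.3% with every testis above, against 44.5% for transcripts with a SwissProt or pfam match.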

How the data were processed

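One table was used, with a row per full-length transcript. Per the file headers it holds, for 3 testis and 3 ovary libraries, deposited read counts and FPKM, transcript lengths and annotations. The deposited counts are estimated counts, since 26.5% to 31.6% of a library's values were whole. They were rounded for the count models only. In the deposited FPKM the authors' scaling takes in library size and transcript length. Recomputed from the counts, the length used was shorter than the transcript by a median of 246 to 276 bases, and FPKM summed to 721650 to 1312670 per library, highest in testes 2 and 3. Per the submitters' processing notes, HISAT2 2.0.5 and featureCounts 1.5.0-p3 were used along with fastp and CASAVA 1.8. For the part of each, and for quantifier and genome build: not given in the sources used here. Per the labels' protocols, RNA was extracted with TRIzol and libraries were made with a NEBNext Ultra kit.

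Unannotated rows and their build were read from the annotation columns and row names. Differences were fitted on all rows, testis minus ovary, with edgeR 4.0.16 (TMM, filterByExpr, robust glmQLFit) in R 4.3.3, tested on simulated data. Alternatives used DESeq2 1.42.0 and limma 3.58.1. The limma fits on log2 FPKM took rows with a mean of at least 0.1 FPKM in either tissue, and limma-voom took the rows left by filterByExpr. Exact two-sided permutation tests compared values per library. Other steps used pandas 2.3.3, numpy 2.4.6 and scipy 1.17.1 in Python 3.11.15, statsmodels for intervals, and matplotlib 3.10.9. A count was called whole within 1e-09.

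Transcripts given by number are the 2 largest called rises and falls without overlap and averaging 10 FPKM or more in the higher tissue. The next 5 of each direction, the 5 most abundant of each tissue by mean FPKM and the longest and shortest of each build are given by rank and length. The table pairs no gene name with these rows. The members and lists were chosen with earlier results of these data known. The annotation classes compare transcripts, which are not replicates, so they carry no test.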

Additional observations from a re-analysis of the deposited data

How the results depend on the processing

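Of the counts of calls, the following moved by over 1.5 times. Testis-built unannotated transcripts higher in testis, 192 with edgeR, were 423 with DESeq2, 83 with limma-voom, 317 with limma on log2(FPKM + 0.1), 93 without a filter on low counts, 289 for transcripts without a protein match, and 0 to 110 with 1 library left out. Ovary-built ones higher in ovary, 50 with edgeR, were 194, 27, 76, 14 (no filter) and 0 to 10. With no filter the 93 and 14 were 11.5% and 2.89% of those tested, against 7.38% and 2.32% of all rows of the builds. The 317 and 76 with limma on log2(FPKM + 0.1) were 40.9% and 16.1%, against 23.7% and 8.95% of all rows. The 289 came from a larger set. They were 31.4% of its 921 tested transcripts, near the 29.6% for the 192, against 15.8% of all testis-built rows. The 0 calls held for the whole table in each fit that gave them. The opposite directions, 2 and 5, were 7 and 21 with DESeq2, 1 and 2 with limma-voom, 1 and 3 without a filter, and 0 to 1 and 0 to 5 with 1 library left out. The 5 were 13 and 14 with limma on log2(FPKM + 1) and log2(FPKM + 0.1), and 8 for transcripts without a protein match. With a replicate block all 4 counts were 0. At an unadjusted edgeR p under 0.05, 316 of 648 testis-built ones were then higher in testis and 112 of 369 ovary-built ones higher in ovary. Over all rows of the builds these were 3295 of 11027 and 3248 of 19711. Testes and ovaries of the same number are different fish, and their deviations from the tissue means correlated at 0.0151, -0.000568 and -0.00204, so the numbers do not pair them. The difference in median log2 ratio, 0.75 for the testis build, was 1.49 under 1000, 1.33 from 1000 to under 2000, 0.17 from 3000 to under 5000 and 2.49 at 5000 bases and over (2 transcripts), and 0.61 to 1.42 with 1 library left out. For the ovary build, -1.05, it was -0.57 with an offset of 0.5 CPM, -0.58 with 2 full-length reads, -2.17 with whole counts and -4.34 at 5000 bases and over (2 transcripts). All settings for the log2 ratio, and those by full-length reads and whole counts, were added after seeing the data. The gap in detection between unannotated and annotated testis-built transcripts, testis minus ovary, turned to -2.65 points from 3000 to under 5000 bases (exact permutation p = 0.5). The cause of these shifts was not tested. Other differences between the tissues in detection, median level, share of counts and whole counts kept their direction under each alternative run, but not their size. Over all unannotated transcripts the difference in share of counts, 1.32 points, was 0.239 on summed FPKM (exact permutation p = 0.4) and 2.75 for transcripts without a protein match. For the ovary build, -0.548, it was -1.30 on summed FPKM. Testis-built detection, 12.4 points, was 25.9 at a count of at least 10, 27.5 at 0.5 CPM and 37.98 at 1 FPKM. The ovary-built level gap, -1.18, was -2.89 with whole counts and -0.59 from 3000 to under 5000 bases. None of these exact p could fall below 0.1.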

Other observations

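Across the 825 testis-built transcripts, Spearman's rank correlation of counts was 0.84 between testes 2 and 3, against 0.80 across the annotated ones, and 0.52 and 0.54 between testis 1 and the other two, against 0.40 and 0.41. Between ovaries it was 0.79 to 0.83 for the unannotated and 0.73 to 0.77 for the annotated ones. Across the 494 ovary-built transcripts it was 0.79 to 0.83 between testes, against 0.64 to 0.79, and 0.46 to 0.53 between ovaries, against 0.36 to 0.52. These correlations are descriptions across transcripts that share libraries and depth and include transcripts at 0, and they carry no test.

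Better supported unannotated transcripts were further to the side of their own tissue. Those with 3 or more full-length reads had a median log2 ratio, testis over ovary, of 3.47 in the testis build (174 transcripts), against 2.91 for those with 2 reads (651). In the ovary build the medians were -3.16 (160) and -1.54 (334). Full-length reads came from the tissue of the build, so grouping by them is not independent of the level in that tissue. Annotated transcripts with 3 or more and with 2 reads stood at 2.13 and 2.40 in the testis build and at -1.03 and -0.96 in the ovary build.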
